A study of Mus musculus with 8 samples.

Results

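The 10 integrin subunit genes of mouse Th17 cells, Itga4, Itgal, Itgae, Itgav, Itga6, Itgb1, Itgb2, Itgb3, Itgb7 and Itgb8, were followed through 8 RNA sequencing libraries. They were chosen by symbol, and all 10 were present among the 24426 gene symbols of the count table. The series set Th17 cells carrying miR-96 (2 libraries) against Th17 cells carrying a control vector (2 libraries), and miR-183C-/- Th17 cells (knockout, KO, 2 libraries) against miR-183C+/+ Th17 cells (wild type, WT, 2 libraries). miR-183C stands for the cluster of miR-183, miR-96 and miR-182, microRNAs transcribed together. All cells had the C57BL/6J background and came from cultures in the Th17(23) condition, taken on day 4 or 5. The labels describe the genotype libraries as not transduced, and the protocol describes a sort for GFP without saying to which libraries it applied. The labels do not give the age and sex of the animals or the genotype of the transduced cells. They also do not say whether the duplicates came from separate animals or cultures. The p-values therefore reflect the scatter of these samples alone, and how much of that scatter is technical is not known. Cells carrying the control vector are called vector cells from here on.

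Integrins are heterodimers of an alpha and a beta chain that bind cells to other cells and to matrix, and T cells switch them on from inside after antigen receptor or chemokine signals. In T cells alpha4 pairs with beta1 or beta7 and carries cells into inflamed tissue or gut, alphaL pairs with beta2 to form LFA-1, alphaE pairs with beta7 to hold cells in epithelium, alpha6 pairs with beta1 to bind laminin, and alphaV pairs with beta1, beta3 or beta8. The alphaV beta8 pair releases active TGF-beta, a cytokine that can act in Th17 and regulatory T cell differentiation, from its latent complex. Each chain needs a partner to reach the cell surface, so transcript levels do not give surface levels.

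The microRNAs of the cluster are shown because the seed, bases 2 to 8 in capitals, sets which sites they can pair with. Sequences are from RefSeq (GRCm38.p6), written 5′ to 3′.
mmu-miR-96-5p: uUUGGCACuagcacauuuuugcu
mmu-miR-182-5p: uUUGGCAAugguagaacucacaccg
mmu-miR-183-5p: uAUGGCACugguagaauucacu
Matches to the 7 bases complementary to each seed (GTGCCAA for miR-96, TTGCCAA for miR-182 and GTGCCAT for miR-183, sense strand only, of which no 2 can start at the same base) were searched in the longest annotated 3′ UTR of every gene. Of the 10 integrins, 2 held a match, Itgb1 and Itgb8. In all, 26.5% of the 11060 tested genes with a 3′ UTR held a match to at least 1 of the 3, and 9.4% held one for miR-96. The 4 matches, capitals marking the 7 bases, lay in 3′ UTR exons on GRCm38, given with the strand of the gene.
Itgb1, miR-96 match, chr8:128732377-128732405, plus strand: tgacactgctaGTGCCAAtgcagggcaga
Itgb1, miR-183 match, chr8:128732663-128732691, plus strand: ttaaaacctgtGTGCCATtgtgagttact
Itgb8, miR-182 match, chr12:119160946-119160974, minus strand: gatgaatttccTTGCCAAgaattcagtgc
Itgb8, miR-183 match, chr12:119162992-119163020, minus strand: tattgaagagtGTGCCATgaagactggca
A match is a description of the letters and not a site shown to be used, and its absence says only that these letters are not in the window searched.

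Library totals ranged from 7142429 to 12452659 estimated counts, and the 10 integrins took 0.155% to 0.187% of them. Levels are CPM, counts scaled to a common library size with TMM factors. The defining T cell markers Cd3e, Cd3d, Cd3g, Cd247, Cd4 and Lck were present in all libraries, at 1598 to 2104 CPM summed over the list, led by Lck and Cd4. The Th17 list was led by Il17f and Il17a, and its sum was 835 and 1196 CPM in miR-96 cells, 561 and 336 in vector cells, 199 and 227 in KO and 589 and 918 in WT. Mir96 had 7 and 2 counts in miR-96 cells and 0 in the other 6 libraries. The poly(A) selection leaves mature microRNAs out of the count, so neither their rise with the miR-96 vector nor their loss in the knockout was checked. Transcripts of 4 Y-linked genes summed to 111 and 330 CPM in miR-96 cells, 1.02 and 0.0967 in vector cells, 244 and 266 in KO and 114 and 282 in WT, so sex and vector cannot be told apart. Xist, transcribed from the inactive X of female cells, was at 1082 and 166 CPM in miR-96 cells, 1220 and 1480 in vector cells, 0 and 144 in KO and 1217 and 389.7 in WT. In the miR-96 group and in WT the 2 libraries differed in both Xist and Y-linked sums. Duplicates there did not hold the same mix of sexes. Both KO libraries lay below both WT libraries in Xist, while the Y-linked sums of KO and WT overlapped. The mix of sexes thus differed between libraries in the KO contrast too, and its part in the integrin differences was not tested. In KO library 1, 55.6% of detected genes had an estimated count that was not whole within 0.02, against 6.39% to 7.41% elsewhere. The labels do not say whether it was counted with other settings, and the part of this difference in the KO contrast was not tested.

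Per transcript length the integrins fell into an abundant set and a scarce one. Mean CPM per kilobase of merged exons over the 8 libraries was 110.2 for Itgb2, 83.5 for Itgal, 80.3 for Itgb1 and 77.9 for Itgb7, followed by 12.9 for Itgav, 8.50 for Itga6, 3.10 for Itgb3, 2.98 for Itga4, 0.814 for Itgae and 0.174 for Itgb8. Itgb2 stood above Itgal in 8 of 8 libraries with no overlap of their ranges, and Itgb7 above Itgav likewise. Itgal, Itgb1 and Itgb7 did not differ beyond their spread, with ranges over the 8 libraries of 69.7 to 98.2, 53.8 to 99.1 and 67.4 to 89.5 CPM per kilobase. The ranges of all later neighbours in the order overlapped too, although Itga4 exceeded Itgae, and Itgae exceeded Itgb8, in 8 of 8 libraries. Merged exons include long or rare 3′ UTR forms, as in Itga4 with 13978 bases, so levels per length of such genes are low estimates where short forms prevail.

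**Figure D1:**
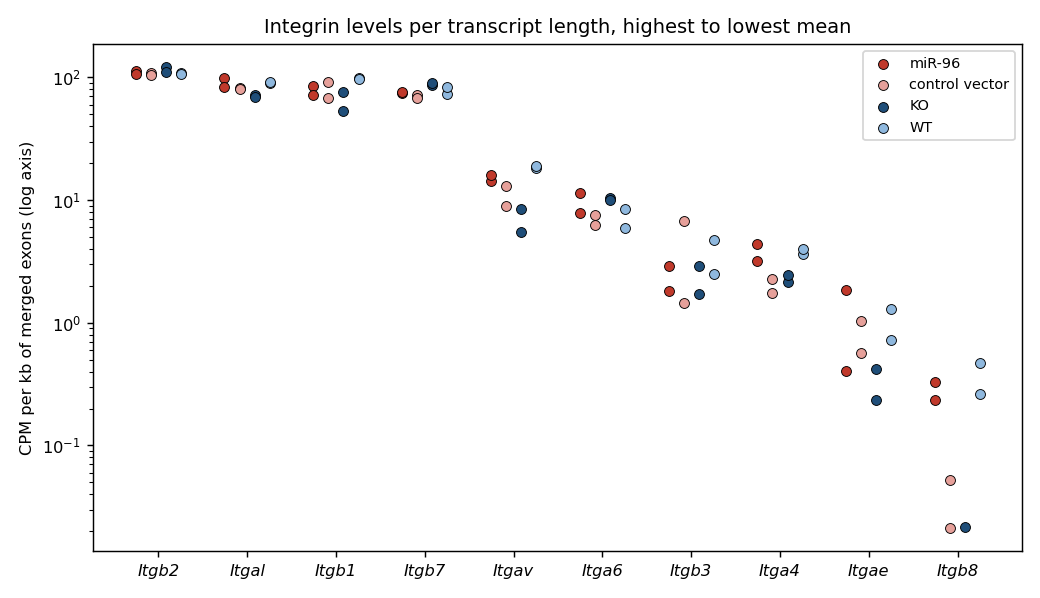
CPM per kilobase of merged exons (log axis) for the 10 integrins, in order of their mean over 8 libraries; each point is a library, coloured by group. Itgb2, Itgal, Itgb1 and Itgb7 lie together near 53.8 to 122 CPM per kilobase, and Itgb8, with KO library 1 at 0 left out of the log axis, is lowest.

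Loss of the cluster came with less Itgb8, Itgav and Itga4 RNA. In bulk libraries fewer cells of a type and less RNA per cell cannot be told apart. A gene was called at an edgeR adjusted p under 0.05. In KO, 3 of the 10 integrins were called lower and 0 higher, where 6.4% of the 11851 genes tested were called lower, 6.63% higher and 13% in either direction. With miR-96, edgeR called 0 of 10 in either direction, against 0.11% of genes tested. There, 2 of 10, Itga4 and Itgb8, had an unadjusted p under 0.05, as did 8.7% of genes tested. DESeq2 called 1 of 10 with miR-96, Itga4, and 115 of the 11851 genes tested. In KO 5 of 10 had an unadjusted p under 0.05, against 34.4% of genes tested. In the direct test of one contrast against the other, 3 of 10, again Itgb8, Itgav and Itga4, had a miR-96 contrast above the KO contrast and 0 had one below it, where 4.58% of genes tested were called in the first direction, 4.45% in the second and 9.03% in either. An unadjusted p under 0.05 in that test was reached by 4 of 10, against 29.8% of genes tested. All 10 members passed the filter on low counts, Itgb8 only through the miR-96 and WT libraries, where it was high. A gene that passes in that way had to differ between groups, so the counts and medians that include Itgb8 are descriptions. The median log2 fold change of the 10 was 0.31 with miR-96 and -0.61 in KO, beside 0.01 and -0.01 over all genes tested. In simulated data of this size, a 2-fold change was recovered in 48% of genes in the miR-96 contrast and 36% in the KO contrast, so a miss does not show that a gene did not change.

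**Figure D2:**
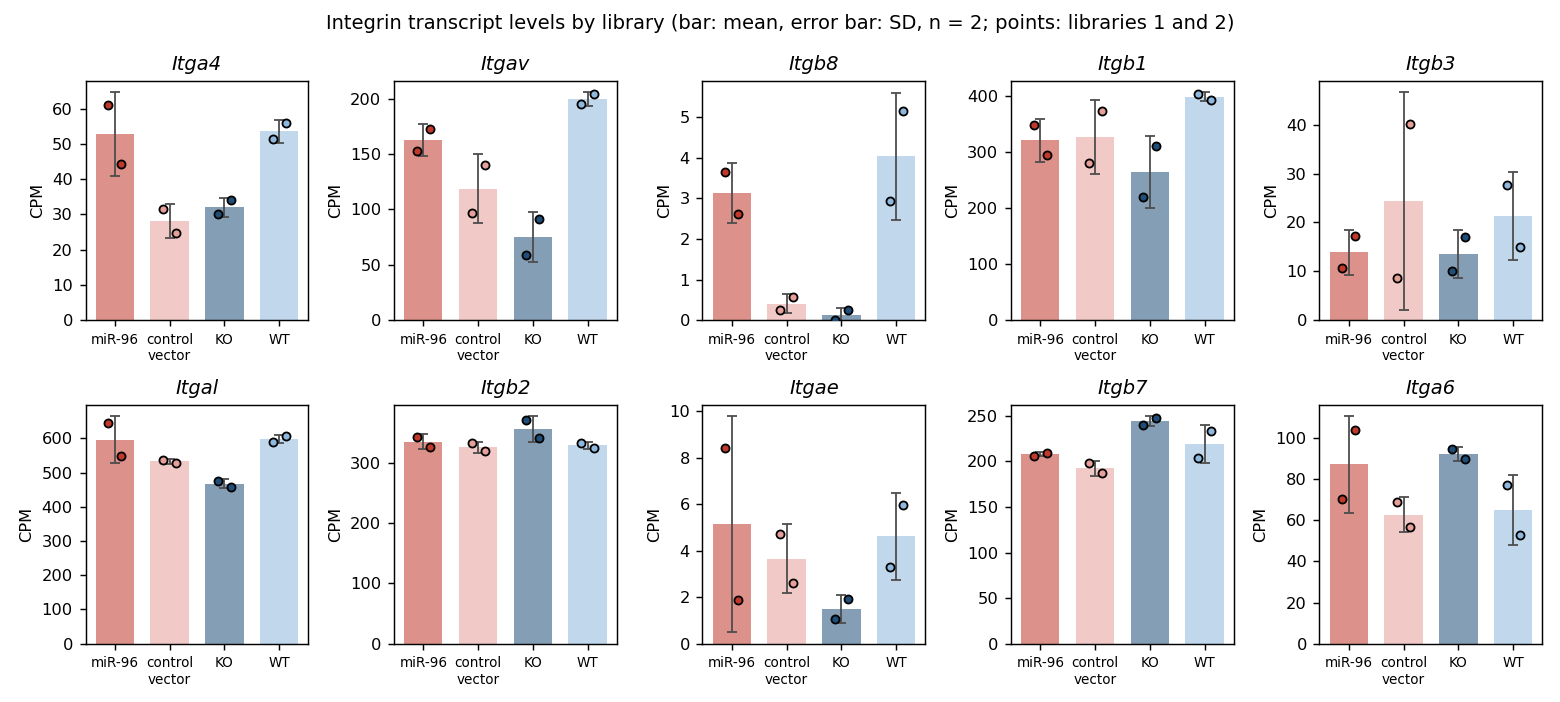
CPM of each integrin by group (miR-96, control vector, KO, WT); bars are means, error bars SD (n = 2) and points the 2 libraries. Itgav and Itgb8 are lowest in KO, and Itga4 is low in both the control vector and KO groups.

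Itgb8 (chromosome 12, 119158022 to 119238802, minus strand) encodes the beta chain that, with alphaV, activates latent TGF-beta. It was at 0 and 0.238 CPM in KO, against 2.92 and 5.15 CPM in WT, which is 2 counts against 76 counts. The KO and WT libraries did not overlap, and the ratio of the pooled counts was 0.0305 (95% exact conditional interval 0.00363 to 0.114, counting error only). The fitted log2 fold change was -4.87 (± 0.91 SE, adjusted p = 0.0258 by edgeR), a value that depends on the prior count and comes from a gene that passed the filter through its high groups. In miR-96 cells it was at 3.67 and 2.61 CPM, against 0.235 and 0.580 CPM in vector cells, or 61 counts against 9. Both miR-96 libraries lay above both control vector libraries, the ratio of pooled counts being 8.26 (95% exact conditional interval 4.08 to 18.9), and the log2 change of 2.95 (± 0.73 SE, adjusted p = 0.360 by edgeR) was not called. Itgb8 thus stood at 2.61 CPM or more in the miR-96 and WT libraries and at 0.580 CPM or less in the control vector and KO libraries.

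Itgav (chromosome 2, 83724397 to 83806916, plus strand) encodes the alphaV chain shared by the receptors for vitronectin, fibronectin and latent TGF-beta. It was at 59.2 and 91.0 CPM in KO, against 195 and 204 CPM in WT. The KO libraries lay apart from each other but both were below WT (log2 change -1.41 ± 0.24 SE, adjusted p = 0.0246 by edgeR). In miR-96 cells it was at 153 and 173 CPM, against 96.5 and 141 CPM in vector cells, with no overlap but a difference that was not called (log2 change 0.46, 95% interval -0.06 to 0.98, adjusted p = 0.610 by edgeR). Both WT libraries exceeded every other library.

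Itga4 (chromosome 2, 79255426 to 79333123, plus strand) encodes the alpha4 chain of VLA-4 and of the gut-homing receptor alpha4 beta7. It was at 30.03 and 33.95 CPM in KO, against 51.3 and 55.9 CPM in WT (log2 change -0.74 ± 0.20 SE, adjusted p = 0.0463 by edgeR). In miR-96 cells it was at 61.1 and 44.3 CPM, against 31.6 and 24.6 CPM in vector cells. Neither experiment showed overlap between its groups. The miR-96 difference (log2 change 0.91 ± 0.20 SE, adjusted p = 0.330 by edgeR) was not called by edgeR with the filter, and was called without a filter (adjusted p = 0.0019) and by DESeq2 (adjusted p = 0.0287).

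These calls rested on KO library 1 and both WT libraries. KO library 1 is the library with the high share of counts that were not whole, and the one at 0 CPM of Xist. Without KO library 1 edgeR called 0 of 12278 genes (1864 had an unadjusted p under 0.05), without WT library 2 it called 1 and without WT library 1 it called 20, with 0 of the 10 integrins called in each case (3, 3 and 5 of 10 at an unadjusted p under 0.05). The fold changes stayed negative. Without KO library 1 they were -4.001 for Itgb8, -1.12 for Itgav and -0.64 for Itga4 (adjusted p = 0.210, 0.210 and 0.304 by edgeR), and without WT library 2 they were -4.41, -1.38 and -0.69 (adjusted p = 0.192, 0.192 and 0.239). Without WT library 1 they were -5.23, -1.44 and -0.81 (adjusted p = 0.107, 0.107 and 0.151). Itga4 alone of the 3 also lost its call without KO library 2 (adjusted p = 0.0690), with upper-quartile scaling (0.0606) and with the duplicate number as a block (0.0551). Over all alternatives the adjusted p in KO ranged from 1.69e-06 to 0.210 for Itgb8, from 3.79e-12 to 0.210 for Itgav and from 0.00486 to 0.304 for Itga4.

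**Figure D3:**
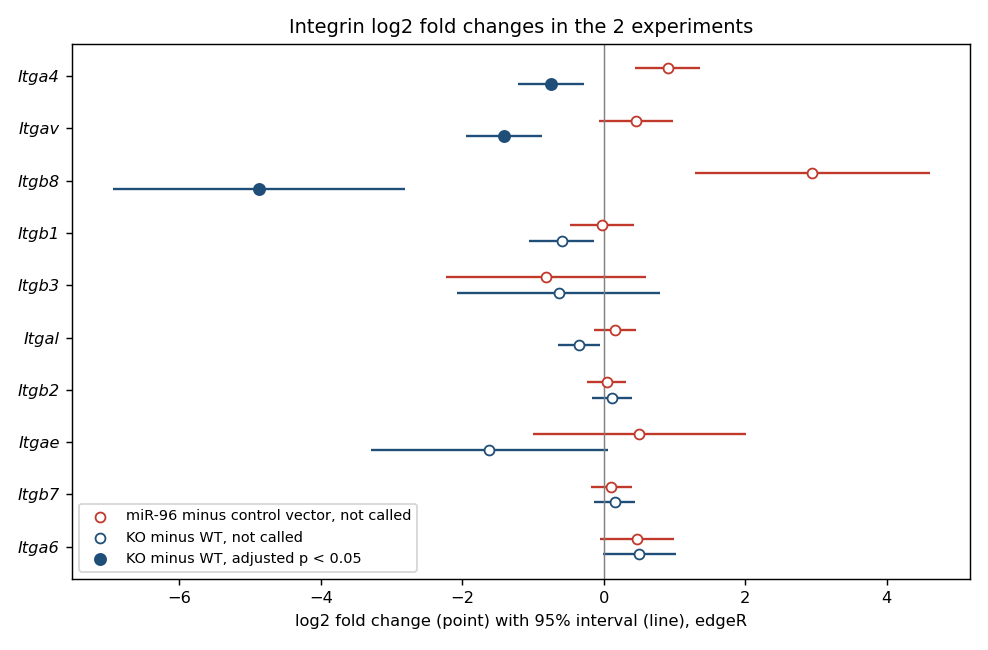
Log2 fold change of each integrin with its 95% interval in the miR-96 minus control vector contrast (red) and the KO minus WT contrast (blue); filled points passed an edgeR adjusted p of 0.05. Itga4, Itgav and Itgb8 have filled points below 0 in KO and open points above 0 with miR-96.

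Of the other partners of alphaV, edgeR with the filter and all 8 libraries called neither Itgb1 nor Itgb3 in either experiment. Both had a negative fold change in KO, as Itgav did. Itgb1 (chromosome 8, 128685654 to 128733200, plus strand), the beta chain of the matrix-binding VLA receptors, was at 219 and 310 CPM in KO, against 404 and 394 CPM in WT. KO lay below WT without overlap, but the log2 change of -0.59 (± 0.20 SE, adjusted p = 0.0797 by edgeR) missed the threshold. It was called by DESeq2 (adjusted p = 0.0325), without a filter, in the fit of the 4 genotype libraries alone and without KO library 2 (-0.87, adjusted p = 0.0369). With miR-96, which matches its 3′ UTR as shown above, Itgb1 was at 347 and 294 CPM, against 280 and 374 CPM in vector cells (log2 change -0.03, 95% interval -0.48 to 0.43). The sign turned without miR-96 library 2 or control vector library 2. Itgb3 (chromosome 11, 104608000 to 104670476, plus strand), the beta chain of the vitronectin receptor, was at 10.6 and 17.2 CPM in miR-96 cells, against 8.63 and 40.1 CPM in vector cells, and at 10.1 and 17.03 CPM in KO, against 27.7 and 14.9 CPM in WT. Both pairs of groups overlapped, and the 2 control vector libraries spanned the whole range of the gene. The platelet list, whose cells are rich in Itgb3 protein, reached 2.98 CPM summed in KO library 1, all of it Gp1ba, and at most 0.124 CPM elsewhere, with Ppbp, Gp9, Gp6 and Gp1bb at 0 in all libraries.

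LFA-1 had the 2 chains highest in mean RNA per length (Itgal within the spread of Itgb1 and Itgb7), and neither was called. Itgal (chromosome 7, 127296260 to 127335138, plus strand), its alpha chain, was at 476 and 458 CPM in KO, against 589 and 606 CPM in WT, without overlap (log2 change -0.35, 95% interval -0.65 to -0.06, adjusted p = 0.0973 by edgeR). In miR-96 cells it was at 645 and 548 CPM, against 537 and 528 CPM in vector cells (log2 change 0.16, adjusted p = 0.767 by edgeR). Itgb2 (chromosome 10, 77530252 to 77565708, plus strand), the beta2 chain common to leukocyte integrins, had the smallest spread of the 10. Its level was 371 and 340 CPM in KO, against 333 and 324 CPM in WT (log2 change 0.11, 95% interval -0.17 to 0.39), and 344 and 327 CPM in miR-96 cells, against 332 and 319 CPM in vector cells (log2 change 0.04, 95% interval -0.24 to 0.32). Over the 8 libraries it ran from 319 to 371 CPM. The ratio of Itgal to Itgb2 per kilobase averaged 0.611 in KO and 0.844 in WT, and 0.826 in miR-96 cells and 0.760 in vector cells.

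The beta7 chain was abundant and its alphaE partner scarce. Itgb7 (chromosome 15, 102215995 to 102231944, minus strand) was at 240 and 248 CPM in KO, against 204 and 234 CPM in WT (log2 change 0.16, 95% interval -0.13 to 0.45), and at 206 and 209 CPM in miR-96 cells, against 198 and 187 CPM in vector cells (log2 change 0.11, 95% interval -0.18 to 0.40). KO lay above WT and miR-96 above the control vector in all libraries, but neither difference was called. Itgae (chromosome 11, 73090583 to 73147446, plus strand), known as CD103 and induced by TGF-beta, was at 1.08 and 1.91 CPM in KO, against 3.29 and 5.95 CPM in WT. That is 24 counts against 87, a ratio of pooled counts of 0.320 (95% exact conditional interval 0.194 to 0.507), with a log2 change of -1.62 (± 0.74 SE, adjusted p = 0.157 by edgeR). With miR-96 its libraries lay far apart at 8.43 and 1.87 CPM, against 4.71 and 2.61 CPM in vector cells, and the sign of the fold change turned without miR-96 library 1. Per kilobase Itgae stood at 0.00369 of Itgb7 in KO and 0.0126 in WT, and Itga4 at 0.0260 of Itgb7 in KO and 0.0486 in WT.

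Itga6 (chromosome 2, 71745616 to 71858416, plus strand), a laminin receptor chain, was the 1 alpha chain of the 5 with a positive fold change in KO. It was at 94.4 and 89.9 CPM in KO, against 77.0 and 53.0 CPM in WT, higher in both libraries but not called (log2 change 0.51 ± 0.23 SE, adjusted p = 0.156 by edgeR; 0.0445 without a filter). In miR-96 cells it was at 70.5 and 104 CPM, against 68.7 and 56.6 CPM in vector cells (log2 change 0.47, adjusted p = 0.602 by edgeR). Of the 10 integrins, 5 (Itga4, Itgal, Itgae, Itgav and Itgb8) had a positive fold change with miR-96 and a negative one in KO, against 31.4% of all genes tested. In 4 of these (all but Itgae) the groups overlapped in neither experiment, against 11.3% of all genes tested. With miR-96, 6 of 10 members lay above vector cells without overlap and 0 below (18.3% and 17.6% of genes tested, 35.9% either way). In KO, 3 of 10 lay above WT without overlap and 6 below (34.9% of genes tested each way, 69.8% either way).

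Transcripts used as markers of other cell types differed along with Itgb8, Itgav and Itga4, and which cells made them was not tested. The regulatory T list (5 of 5 tested) summed to 2168 and 2080 CPM in miR-96 cells, 1766 and 1896 in vector cells, 2051 and 1936 in KO and 2383 and 2652 in WT, most of it Il2ra and Ctla4. Its lineage factor Foxp3, named after its values were seen, was at 10.3 and 7.59 CPM in miR-96 cells, 0.157 and 0.290 in vector cells, 0.406 and 0 in KO and 10.6 and 22.8 in WT. Foxp3 was called higher with miR-96 (1 of 5 list members, against 0.11% of genes tested). Foxp3 and Ikzf2 were called lower in KO (2 of 5, against 6.4% of genes tested). In KO 4 of the 5 had a negative fold change and 1 a positive one. Without overlap, 3 lay below WT and 1 above (34.9% of genes tested each way, 69.8% either way). Foxp3, like Itgb8, passed the filter only through the libraries where it was high. Its call with miR-96 (adjusted p = 0.0459 by edgeR) held in 10 of 17 alternatives (edgeR adjusted p up to 0.242, without control vector library 1). It was lost without either control vector library, miR-96 library 2 or WT library 2, with upper-quartile scaling, with the duplicate block and in the fit of the 4 libraries alone. The KO calls of Foxp3 and Ikzf2 were lost without KO library 1 or WT library 2. Regulatory T cells are known to carry alphaV beta8. The same 4 libraries were high in Itgb8 and in Foxp3, and the part of such cells in the result was not tested.

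The other marker lists are given beside these genes. B cell markers, with 7 of 7 detected and Ebf1 and Jchain most abundant, summed to 64.3 and 73.2 CPM in miR-96 cells, 28.2 and 17.3 in vector cells, 16.8 and 15.5 in KO and 60.4 and 118 in WT. Among them Cd79a and Jchain were called higher with miR-96, and Ms4a1, Cd79a, Cd79b and Jchain lower in KO. The miR-96 calls of Cd79a and Jchain were lost without either control vector library, and that of Cd79a also in fits of the 4 libraries alone. CD8 T and NK markers, led by Gzma and Prf1, with Ncr1 and Klrb1c at 0 CPM, summed to 32.3 and 42.8 CPM in miR-96 cells, 8.002 and 13.3 in vector cells, 10.6 and 14.5 in KO and 39.6 and 65.0 in WT, and Gzma and Prf1 were called lower in KO. The Th17 markers Il17a and Il17f were also called lower in KO (2 of 7, against 6.4% of genes tested), and Cd3e was called higher. All 7 Th17 markers lay above vector cells with miR-96 without overlap, against 18.3% of genes tested. In KO all 7 lay below WT without overlap, against 34.9% of genes tested. Every marker call in KO named here was lost without KO library 1, and all but that of Jchain without WT library 2. The KO call held in 7 of 16 alternatives for Ms4a1, 10 of 16 for Prf1 and 11 of 16 for Cd3e. Ms4a1 lost it without any one of the 8 libraries, Prf1 without any one of the 4 genotype libraries, Cd3e also without WT library 1 or control vector library 2, Cd79b also without WT library 1, and Ms4a1, Prf1 and Cd3e with the duplicate block. The part of these cell types in the integrin differences was likewise not tested. Myeloid markers, led by Cd68 and Lyz2, reached at most 24.2 CPM summed, and stromal and endothelial markers, led by Pecam1 and Col1a1, at most 59.2 CPM. The gamma delta T list (Sox13 and Cd163l1) reached at most 3.11 CPM. Only some of these markers could be tested, namely 5 of 7 myeloid, 2 of 9 stromal and endothelial, 1 of 5 gamma delta T and 0 of 6 platelet markers. Among those tested, edgeR and DESeq2 called 0 in either experiment, and 0 had an unadjusted p under 0.05.

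**Figure D4:**
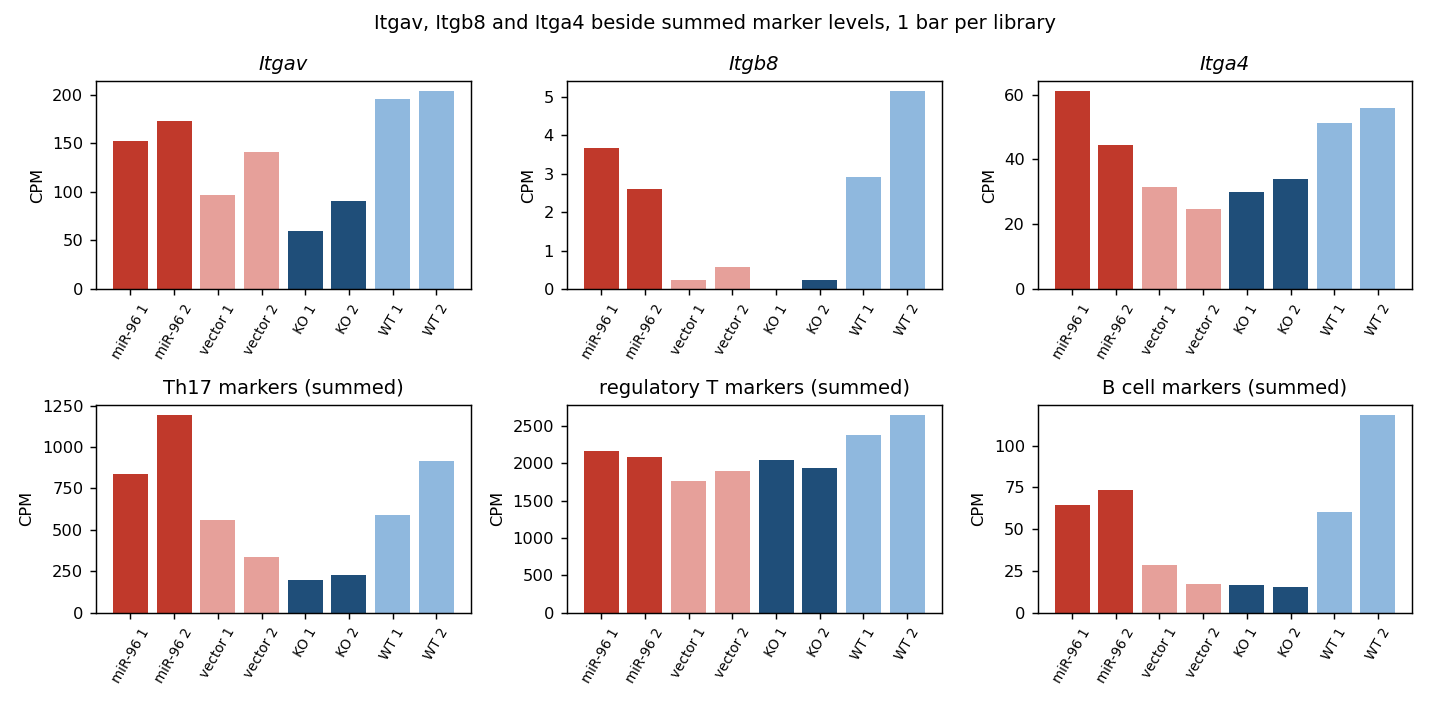
CPM in each of the 8 libraries for Itgav, Itgb8 and Itga4 (top) and for the summed Th17, regulatory T and B cell marker lists (bottom); 1 bar is 1 library, in the order miR-96, control vector, KO, WT. The B cell sum is at 60.4 CPM or more in the miR-96 and WT libraries and at 28.2 CPM or less in the others.

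Of 17 integrin subunits outside the 10, 10 passed the filter on low counts. In KO edgeR called 1 of them, Itga7, against 13% of all genes tested, and in miR-96 cells 0, against 0.11%. With miR-96, 1 had an unadjusted p under 0.05, against 8.7% of all genes tested, and DESeq2 called 0. In KO 2 had an unadjusted p under 0.05, against 34.4% of all genes tested. DESeq2 called 1 in KO, again Itga7, against 2220 of all 11851 genes tested. Itga7, a laminin receptor chain best known from muscle, was at 307 and 149 CPM in KO, against 20.4 and 9.51 CPM in WT (log2 change 3.94 ± 1.02 SE, adjusted p = 0.0400 by edgeR). Its level also differed widely inside each group of the first experiment, at 21.99 and 127 CPM in miR-96 cells, against 139 and 21.6 CPM in vector cells. The call was lost without KO library 1, WT library 1 or WT library 2. Itga3, a second laminin receptor chain, was the most abundant of the 17 at 246 to 362 CPM over the 8 libraries, and Itga5, the fibronectin receptor chain, ranged from 11.6 to 23.4 CPM. Itga2, Itga2b, Itga9, Itga10 and Itgb5 reached at most 10.8 CPM, and the myeloid chains Itgam and Itgax at most 2.38 CPM. Itgax differed between the experiments in the direct test (log2 difference 6.20, adjusted p = 0.0461 by edgeR), a gene at 0 and 0.119 CPM in KO, against 0.609 and 2.38 CPM in WT. Itgax passed the filter on low counts only through miR-96 library 1 (1.83 CPM) and WT library 2 (2.38 CPM), its highest libraries. Its call is thus a description, as for Itgb8. The call was lost without any one of the 8 libraries. Itga1, Itga8, Itga11, Itgad, Itgb4, Itgb6 and Itgb2l were too low to be tested.

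The machinery that links integrins to the cytoskeleton was expressed and gave 1 edgeR call. Of 34 listed activation and adaptor genes 31 were tested, with 0 called by edgeR in miR-96 cells (0 at an unadjusted p under 0.05, 0 by DESeq2) and 1, Skap1, called higher in KO (median log2 fold change of the list 0.02 and 0.10). In KO 12 of 31 had an unadjusted p under 0.05, against 34.4% of all genes tested. DESeq2 called 2 there, Skap1 and Skap2. Of all 11851 genes tested in KO, edgeR called 13% and DESeq2 called 2220. Skap1, an adaptor that couples the T cell receptor to LFA-1, was at 146 and 100 CPM in KO, against 54.6 and 53.3 CPM in WT (log2 change 1.19 ± 0.22 SE, adjusted p = 0.0254 by edgeR), and at 53.9 and 56.0 CPM in miR-96 cells, against 87.6 and 62.4 CPM in vector cells. The contrasts differed for it (log2 difference -1.64, adjusted p = 0.0209 by edgeR). Tln1, which encodes the talin that opens integrins, stayed at 392.3 to 472 CPM and Fermt3, the kindlin of blood cells, at 367 to 457 CPM over the 8 libraries; both were named after their values were seen.

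Among 23 integrin ligands and related genes 14 were tested. Tgfb1, whose latent form alphaV beta8 binds, was called in the other direction from Itgb8 and Itgav in KO. It was at 370 and 272 CPM in KO, against 207 and 189 CPM in WT (log2 change 0.70 ± 0.16 SE, adjusted p = 0.0327 by edgeR), and at 177 and 181 CPM in miR-96 cells, against 233 and 248 CPM in vector cells (log2 change -0.43 ± 0.16 SE, adjusted p = 0.532 by edgeR). It was the 1 ligand called in KO by edgeR, against 13% of all genes tested, and by DESeq2, against 2220 of 11851. In KO 2 of 14 had an unadjusted p under 0.05, against 34.4% of all genes tested. In miR-96 cells edgeR called 0, against 0.11% of all genes tested, and DESeq2 called 0. With miR-96, 2 had an unadjusted p under 0.05, against 8.7% of all genes tested. Tgfb1 and Emilin1, an extracellular matrix gene, were called in the direct test between experiments (log2 differences -1.12 and -2.01, edgeR adjusted p = 0.0269 and 0.0474). Vcam1 and Madcam1, the endothelial ligands of alpha4 integrins, and Cdh1, the epithelial ligand of alphaE beta7, reached at most 0.483 CPM.

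Of 15 other homing and adhesion genes tested, 2 were called lower and 1 higher in KO by edgeR, against 6.4% and 6.63% of all genes tested. In KO 9 of 15 had an unadjusted p under 0.05, against 34.4% of all genes tested. DESeq2 called 6 of 15 in KO, against 2220 of all 11851 genes tested. In miR-96 cells edgeR called 0 (4 had an unadjusted p under 0.05, against 8.7% of all genes tested). DESeq2 called 2 in miR-96 cells, against 115 of all 11851 genes tested. Cxcr6, a chemokine receptor of tissue T cells, was lower in KO (2.03 and 3.93 CPM, against 14.99 and 35.3 CPM in WT, edgeR adjusted p = 0.0246). Cd44, the hyaluronan receptor of activated T cells, was lower too (175 and 189 CPM in KO, against 272 and 280 CPM in WT, edgeR adjusted p = 0.0430). Cxcr6, Cd44, Ccr6 and Alcam were called in the direct test between experiments. The KO calls of Skap1, Tgfb1 and Cd44 were lost without KO library 1, WT library 1 or WT library 2, and that of Cxcr6 without KO library 1 or WT library 2. Cd44 also lost it without KO library 2. In the direct test Cxcr6 kept its call without each library in turn. Skap1 lost it without KO library 1 or either WT library, and Tgfb1 without these or miR-96 library 2. Cd44 lost it without any one of the 8 libraries, Emilin1 without any but KO library 2, Alcam without any but KO library 2, and Ccr6 without any but the vector libraries.

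Itgb8 and Itgae varied most over the 8 libraries, with SDs of log2 CPM of 1.76 and 0.91. They were also the 2 scarcest members, at 0 to 52 and 8 to 92 counts per library. Counting error and the prior count therefore enter these SDs and the correlations below. Among 5788 well-expressed genes, those with the pattern most like Itgb8 were Ranbp2, a nuclear pore gene (Pearson r = 0.993), Pik3ca, a lipid kinase gene (0.987), and Senp5, a SUMO protease gene (0.987). For Itgae they were Adap1 (0.978), Ube2d2a (0.977) and Endod1 (0.962). These r describe 8 libraries that share groups, depth and scaling, and are the highest of many compared. Ranbp2 was at 514 and 521 CPM in miR-96 cells, 389 and 422 in vector cells, 327 and 380 in KO and 518 and 560 in WT.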

How the data were processed

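The deposited values are estimated counts per gene symbol (expected counts, so not all whole), which the authors made from their reads and did not normalize, 1 column per library. As tools the submitters' processing notes list edgeR, Partek, STAR 2.3.0 and bcl2fastq 2.16.0.10, and as build mm10, without roles. The annotation and strand setting of the counting are not given in the sources used here, so reads shared with overlapping or antisense genes cannot be told apart. Columns were tied to samples by the letter in each description. The table has 24453 lines, and 27 that carry a date number where the symbol should be were dropped (at most 0.243% of a library's counts). Values were rounded, and all 8 libraries entered a single quasi-likelihood fit in edgeR 4.0.16 (R 4.3.3) with group as the term, TMM factors and the filterByExpr filter (10 counts, 15 in total), leaving 11851 genes to test with 4 residual degrees of freedom. Contrasts were miR-96 minus control vector, KO minus WT and the difference of these. Adjusted p are Benjamini-Hochberg over all genes tested. Each SE was derived from the F statistic of its fold change. The script was tested on simulated data. Gene positions, exon lengths and 3′ UTRs are from GENCODE M21 on GRCm38, the assembly of mm10, joined by symbol (23422 matched, 19538 with a 3′ UTR). Ratios of pooled counts have exact binomial intervals that cover counting error only.

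Other settings tried were RLE or upper-quartile scaling, leaving off the filter or asking for 1 CPM in 2 libraries, the DESeq2 1.42.0 test, unrounded counts, separate fits of each experiment, a block for duplicate number, and leaving out each library. The members and lists were chosen with earlier results of these data known. The genes named were all members and tested integrins outside them, the called genes of each list (up to 6), the 2 most abundant of each marker list, and the 3 genes most correlated (log2 CPM, prior count 2, mean of 5 or more) with the 2 most variable members; others were named after their values were seen. A result for 1 gene of the homing and adhesion list is not reported here.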

Additional observations from a re-analysis of the deposited data

Results flagged for a closer look

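The contrast of miR-96 with the control vector differed from that of KO with WT for 3 of the 10 integrins by edgeR. This direct test of the difference called 9.03% of all genes tested. The log2 difference was 7.82 for Itgb8 (± 1.17 SE, adjusted p = 0.0142 by edgeR), 1.87 for Itgav (± 0.33 SE, adjusted p = 0.0186 by edgeR) and 1.65 for Itga4 (± 0.29 SE, adjusted p = 0.0185 by edgeR). Each had higher levels in both miR-96 libraries than in both control vector libraries, and lower levels in both KO libraries than in both WT libraries. The Itgb8 value rests on 2 counts in KO and depends on the prior count. Itgb8 passed the filter only through the miR-96 and WT libraries, where it was high, so its call is a description. The calls of Itgav and Itga4 were lost without KO library 1 (edgeR adjusted p = 0.0763 and 0.0881), WT library 1 (0.0621 and 0.0583) or WT library 2 (0.104 and 0.107), and that of Itgb8 without KO library 1 (0.0589) or WT library 2 (0.0987). The adjusted p across the alternatives run went from 9.83e-10 to 0.0987, from 6.83e-11 to 0.104 and from 2.20e-06 to 0.107 for Itgb8, Itgav and Itga4.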

How the results depend on the processing

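Without a filter on low counts 466 genes were called with miR-96 (2 integrins), 3151 in KO (6 integrins) and 2534 in the difference. DESeq2 called 115 genes with miR-96 (1 integrin), 2220 in KO (4 integrins) and 1674 in the difference. The 4 libraries of a contrast alone gave 8 calls with miR-96 and 2641 in KO. Leaving out 1 library, a lone library being assumed to vary like the other groups, gave 0 to 125 calls with miR-96 (0 without control vector library 1, where 1254 genes had an unadjusted p under 0.05, and 125 without miR-96 library 1), 0 to 1975 in KO (0 to 3 integrins, lowest without KO library 1) and 23 to 1613 in the difference (0 to 3 integrins, lowest without WT library 2). Of results that were not called, the sign of the fold change turned with miR-96 for Itgae (-0.96 to 1.19 when leaving out 1 library, negative without miR-96 library 1), Itgb1 (-0.25 to 0.21, positive at 0.09 without miR-96 library 2, 0.21 without control vector library 2) and Itgb3 (-1.56 to 0.69, positive without control vector library 2). In the difference it turned for Itga6 (-0.34 to 0.23, positive at 0.23 without miR-96 library 1, 0.05 without control vector library 1, 0.22 without WT library 2), Itgb7 (-0.15 to 0.037, positive without WT library 1) and Itgb3 (0.14 with the replicate block and without miR-96 library 1, 1.32 without control vector library 2, 0.26 without KO library 2, 0.21 without WT library 2). No integrin turned in KO under any alternative run. With the duplicate number as a block, 16, 1320 and 977 genes were called with miR-96, in KO and in the difference. The labels do not say what the number marks, and deviations of same-numbered libraries correlated at -0.221 between the vector groups and 0.0953 between the genotype groups. Crossing the numbers in the vector experiment, chosen after seeing the data, gave 20 calls. The cause of these changes was not tested.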

Other observations

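The 2 libraries of a group differed widely for some integrins. In control vector libraries 1 and 2, Itgb3 was at 8.63 and 40.1 CPM, while Itga7 was at 139 and 21.6 CPM in the same libraries. Itgae was at 8.43 and 1.87 CPM in the miR-96 libraries 1 and 2, where Itga7 was at 21.99 and 127 CPM and Lama5, a laminin chain that alpha6 beta1 and the Itga7 product bind, was at 125 and 451 CPM. Lama5 was at 208 and 177 CPM in KO, against 204 and 112 CPM in WT. Spp1, which encodes osteopontin, a ligand of alphaV and alpha4 integrins, was at 346 and 120 CPM in miR-96 cells, against 419 and 189 CPM in control vector cells, and at 468 and 354 CPM in KO, against 190 and 222 CPM in WT, and was called in neither experiment (adjusted p = 0.871 and 0.171 by edgeR). Lama5 and Spp1 were named after their values were seen.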
